A study of Saccharomyces cerevisiae with 6 samples.

Results

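The genes described here are 6 yeast genes of nucleotide and serine synthesis whose mRNAs are limited by early termination, by the choice of start site or by noncoding transcription upstream: *IMD2*, *IMD3*, *URA2*, *URA8*, *ADE12* and *SER3*. They were chosen by name from this knowledge of their control, by a rule that uses no value from these data, although earlier results of the data were known, and all 6 are among the 8898 counted features. RNA-seq was performed on total RNA of *Saccharomyces cerevisiae* haploid cells labelled as *MATα* of the BY4742 background that lack the genomic *RRP4* gene (*rrp4∆::NEO*) and carry the alleles *ura3∆0*, *leu2∆0* and *his3∆1*. The sole copy of *RRP4*, which encodes a cap subunit of the RNA exosome, was supplied on pRS315, a centromeric plasmid with *LEU2*, either as *RRP4-2xMyc* or as *rrp4-G226D-2xMyc*. The *rrp4-G226D* allele models a disease-linked substitution in human EXOSC2, and both alleles carry the same promoter, tag and *ADH1* 3′ region. Each genotype was grown as 3 cultures, independent replicates per the study's methods, in minimal medium without leucine at 37°C for 5 h, giving 3 *RRP4* and 3 *rrp4-G226D* libraries, so that heat, the tag and the plasmid are common to both groups. All p-values measure the spread between these cultures, and whether they came from separate transformants is not given in the sources used here.

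The RNA exosome degrades RNA from the 3′ end. In the nucleus it removes short transcripts that the Nrd1-Nab3-Sen1 complex has terminated. At *IMD2*, RNA polymerase II starts at upstream G residues when GTP is plentiful and produces short RNAs that Nrd1-Nab3-Sen1 terminates and the exosome degrades; when GTP is scarce, it starts downstream and makes mRNA. *IMD3* is a close paralog of *IMD2*. *URA2*, *URA8* and *ADE12* also have upstream start sites that give unstable transcripts, and those of *URA2* and *URA8* respond to pyrimidine nucleotides. *SER3* is repressed in another way: in serine-rich cells the noncoding RNA *SRG1* is transcribed from upstream across the *SER3* promoter and keeps activators from it.

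The files count reads per annotated feature. Reads that begin upstream and run into an open reading frame are therefore counted with the mRNA, and of the upstream transcripts only *SRG1* has a feature of its own under a gene name. CUTs and SUTs, the cryptic and stable unannotated transcripts in the files, carry no coordinates there, so those next to the 6 genes were not analysed here. Total counts per library were 7663545 to 12181979. Open reading frames took 69.7% to 73.7% of the counts in *RRP4* cells and 82.3% to 84.1% in *rrp4-G226D* cells. Levels are given as normalized counts, that is, CPM scaled by TMM, a method that assumes most features do not change. The TMM factors were 0.821 to 0.878 in *RRP4* and 1.15 to 1.20 in *rrp4-G226D* libraries, so the composition of the libraries differed between the genotypes. A level is a share of the RNA in a library, and in bulk RNA fewer cells that express a gene and less of its RNA per cell cannot be told apart. The plasmid-borne *RRP4* read at 170 ± 7.10 in *RRP4* and 294 ± 11.1 in *rrp4-G226D* cells (SD, n = 3 each). Those counts do not separate the alleles.

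Of the 6 genes, *IMD2* increased and *IMD3* decreased in *rrp4-G226D* cells, and the other 4 moved by less than 1.5-fold. A call needed both an adjusted p (Benjamini-Hochberg) under 0.05 in edgeR's quasi-likelihood test and a difference of 1.5-fold or more. Over all 7631 features tested, 12.7% were called increased and 11.3% decreased, beside 1 gene of the 6 in each direction. On the adjusted p alone, 28.6% of all features were higher and 31% lower in *rrp4-G226D* cells; *IMD2*, *URA2* and *URA8* were among the former and *IMD3*, *ADE12* and *SER3* among the latter. In each of the 6 genes the libraries of the 2 genotypes did not overlap, which held for 64.1% of all features. The 6 had a median log2 fold change of −0.03, against 0.01 over all features tested and −0.07 over the 5982 open reading frames tested.

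**Figure D1:**
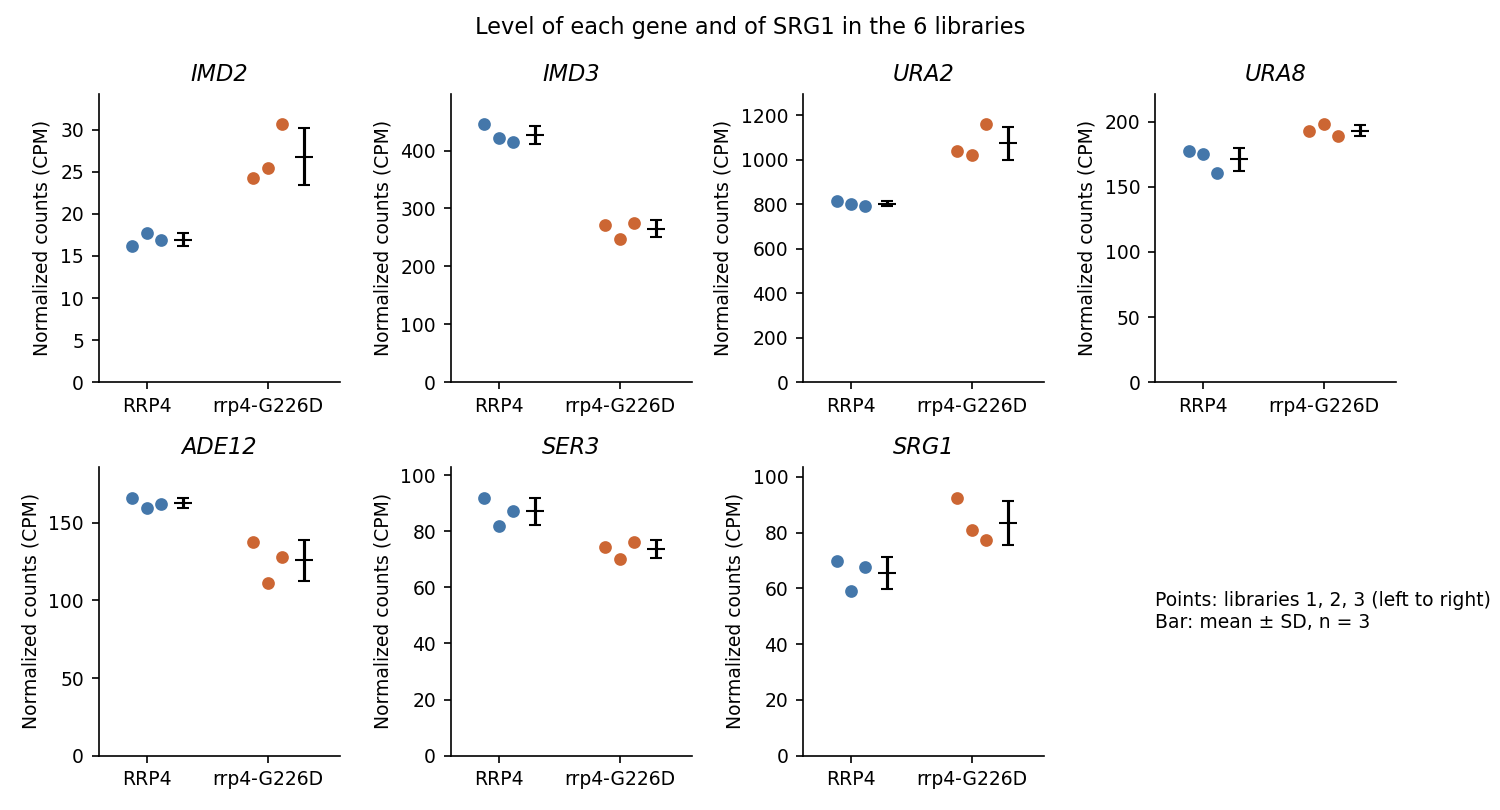
Normalized counts (TMM-scaled CPM, linear axes from 0) of the 6 genes and of *SRG1* in each library, with *RRP4* libraries in blue, *rrp4-G226D* libraries in orange, and black bars for the mean ± SD of 3 libraries. *IMD2*, *URA2*, *URA8* and *SRG1* were higher in every *rrp4-G226D* library than in any *RRP4* library, and *IMD3*, *ADE12* and *SER3* were lower; scaled by library size alone, the means of *ADE12* and *SER3* were higher.

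*IMD2* (YHR216W, chromosome VIII, 554396 to 555967, plus strand of R64) encodes IMP dehydrogenase, the first enzyme of the branch from IMP to GMP, in the form that gives resistance to mycophenolic acid. *IMD3* (YLR432W, chromosome XII, 1002557 to 1004128, plus strand) encodes the same enzyme activity. Their coding sequences, each a single exon of 1572 bases, are 88.9% identical. The first 200 of the 300 bases before each start codon are shown because these paralogs moved in opposite directions; capitals mark the 4-letter motifs bound by Nrd1 (GTAA, GTAG) and Nab3 (TCTT, CTTG) on the strand of the gene, with sequence from RefSeq's R64 assembly.
IMD2, chromosome VIII, 554096 to 554295: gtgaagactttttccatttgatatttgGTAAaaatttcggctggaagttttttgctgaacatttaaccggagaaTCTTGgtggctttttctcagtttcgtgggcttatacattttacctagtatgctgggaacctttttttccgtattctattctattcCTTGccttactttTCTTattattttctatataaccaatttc
IMD3, chromosome XII, 1002257 to 1002456: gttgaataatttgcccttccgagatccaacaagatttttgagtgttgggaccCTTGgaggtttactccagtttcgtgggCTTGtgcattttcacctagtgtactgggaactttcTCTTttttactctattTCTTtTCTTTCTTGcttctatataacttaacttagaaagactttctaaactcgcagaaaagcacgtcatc
The stretch of *IMD2* holds 1 Nrd1 and 4 Nab3 motifs, the overlapping pair in TCTTG counted as 2, and that of *IMD3* holds 0 and 7. Over the full 300 bases before the start codon, the best local alignment covers 210 positions, of which 79.5% are identical, so the paralogs resemble each other upstream as well.

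*IMD2* read at 16.2, 17.7 and 16.9 normalized counts in the *RRP4* libraries and at 24.2, 25.5 and 30.6 in the *rrp4-G226D* libraries. Every *rrp4-G226D* library lay above every *RRP4* library, and *rrp4-G226D* replicate 3 was the highest. The mean rose from 17.0 ± 0.723 to 26.8 ± 3.39 (SD, n = 3 each), a log2 fold change of 0.66 ± 0.11 (SE) and a fold change of 1.58 (edgeR adjusted p = 6.91e-05). The estimate was larger than that of 88.1% of all features tested and 95.4% of open reading frames. Without *rrp4-G226D* replicate 3 the log2 fold change was 0.54 (edgeR adjusted p = 0.00045), under 1.5-fold, so the call rests on that library. The gene was low in both genotypes, with raw counts of 114 to 163 in *RRP4* and 262 to 430 in *rrp4-G226D* libraries; only 8.23% of open reading frames had a lower level per kilobase in *RRP4* cells.

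*IMD3* read at 445, 422 and 416 in the *RRP4* libraries and at 271, 248 and 275 in the *rrp4-G226D* libraries. The lowest *RRP4* library was well above the highest *rrp4-G226D* library. The mean fell from 427 ± 15.7 to 265 ± 14.8 (SD, n = 3 each), a log2 fold change of −0.69 ± 0.06 (SE), or 1.61-fold lower (edgeR adjusted p = 3.01e-08). The call held without any 1 library, with log2 fold changes of −0.73 to −0.66. It did not hold with library size alone, where the log2 fold change was −0.24.

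Further along the GMP branch and among its paralogs, *IMD4*, the remaining active IMP dehydrogenase gene, fell by 0.83 ± 0.07 (SE) on the log2 scale, and *GUK1*, which encodes guanylate kinase, fell by 0.89 ± 0.06. *GUA1*, which encodes GMP synthase, had a log2 fold change of −0.28 ± 0.08 and was not called. With library size alone *IMD4* was at −0.38 and *GUK1* at −0.44, neither called, and *GUA1* was at 0.17. Among all features tested, 12.7% increased and 11.3% decreased. Of the 4 genes of this branch other than *IMD2* and *IMD3*, 1 increased, 2 decreased and 1 was not called, with a median log2 fold change of −0.55. The 1 that increased was *IMD1*, an interrupted copy of IMP dehydrogenase, with raw counts of 3, 3 and 10 in *RRP4* and 32, 19 and 44 in *rrp4-G226D* libraries. Its estimate of 1.94 ± 0.46 became 2.86 without *RRP4* replicate 3, and it is uncertain for another reason: 137 of the 1473 windows of 100 bases in *IMD2* also occur on chromosome I between 228051 and 229100, in the *IMD1* copy. How the authors' counting treated reads that fit both is not given in the sources used here. In *IMD2*, 90.7% of windows occur once in the genome, and in *IMD3* 97.3%, with the other 40 windows also in *IMD4*.

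Summed over *IMD1* to *IMD4*, IMP dehydrogenase genes took 797, 752 and 727 normalized counts in the *RRP4* libraries and 489, 430 and 494 in the *rrp4-G226D* libraries. The family total was lower in every *rrp4-G226D* library, with *IMD3* and *IMD4* making up most of it, while the low *IMD1* and *IMD2* were higher. The share of these counts on *IMD2* was 2.24% ± 0.176 in *RRP4* and 5.69% ± 0.650 in *rrp4-G226D* cells (SD, n = 3 each; exact two-sided permutation test, p = 0.1, adjusted 0.12 over 6 sums and shares of paralogs). With 3 libraries against 3, 0.1 is the smallest p this test can give. Per kilobase of coding sequence, the log2 ratio of *IMD2* to *IMD3* within a library was −4.78, −4.58 and −4.62 in *RRP4* and −3.48, −3.28 and −3.17 in *rrp4-G226D* cells. The ratio of *IMD2* to *IMD4* moved likewise, from a mean of −4.20 to −2.72, whereas that of *IMD3* to *IMD4* moved from 0.45 to 0.59. A ratio within a library does not depend on the scaling between libraries, but it does not say which of the 2 transcripts changed.

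*URA2* (YJL130C, chromosome X, 165723 to 172367, minus strand) encodes the bifunctional carbamoyl phosphate synthetase and aspartate transcarbamylase that opens pyrimidine synthesis and is inhibited by UTP. It read at 813, 803 and 791 normalized counts in the *RRP4* libraries and at 1042, 1023 and 1159 in the *rrp4-G226D* libraries. The genotypes did not overlap, and the spread among *RRP4* libraries was small. The mean was 802 ± 11.1 in *RRP4* and 1075 ± 74.1 in *rrp4-G226D* cells (SD, n = 3 each), a log2 fold change of 0.42 ± 0.06 (SE; edgeR adjusted p = 2.44e-05). At 1.34-fold, with a 95% interval of 0.29 to 0.55 on the log2 scale, *URA2* was not called. Leaving out each library gave 0.36 to 0.45.

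*URA8* (YJR103W, chromosome X, 620754 to 622490, plus strand) encodes CTP synthase, which makes CTP from UTP, and is the minor of a pair with *URA7*. The first 200 of the 300 bases before its start codon are shown because all 7 of their Nrd1 and Nab3 motifs are Nab3 motifs. The same stretches of *IMD3*, with 7 motifs, and of *URA2*, with 3, also hold Nab3 motifs only.
URA8, chromosome X, 620454 to 620653: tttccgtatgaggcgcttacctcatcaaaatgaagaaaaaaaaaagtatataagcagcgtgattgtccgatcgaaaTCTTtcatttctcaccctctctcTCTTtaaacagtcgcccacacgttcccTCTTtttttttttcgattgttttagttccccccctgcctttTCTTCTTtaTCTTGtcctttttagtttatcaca
*URA8* read at 177, 175 and 161 normalized counts in the *RRP4* libraries and at 193, 198 and 189 in the *rrp4-G226D* libraries. The groups did not overlap, but the gap between them was smaller than the range among the *RRP4* libraries. The means were 171 ± 8.92 and 193 ± 4.47 (SD, n = 3 each), a log2 fold change of 0.17 ± 0.06 (SE; edgeR adjusted p = 0.016), which was not called. Without *RRP4* replicate 3, the lowest library, the log2 fold change was 0.13 and the edgeR adjusted p 0.123.

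*URA7*, the major CTP synthase gene, read at 325, 290 and 270 in *RRP4* and at 251, 230 and 271 in *rrp4-G226D* libraries. These groups overlapped, and the log2 fold change of −0.24 ± 0.07 (SE; edgeR adjusted p = 0.0104) was not called. The sum of *URA7* and *URA8* was 466 ± 35.8 in *RRP4* and 444 ± 16.2 in *rrp4-G226D* cells (SD, n = 3 each; exact two-sided permutation test, p = 0.4, adjusted 0.4). The share on *URA8* was 36.8% ± 1.29 and 43.6% ± 2.60, with no overlap (exact permutation test, p = 0.1, adjusted 0.12).

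Both *URA2* and *URA8* stood on the high side of the pyrimidine genes. Of the 13 other genes on the pyrimidine list, 12 were tested, with a median log2 fold change of −0.29. Of these, 0 increased, 2 decreased and 10 were not called, where 12.7% of all features increased and 11.3% decreased. The 2 that decreased were *URA10*, a minor orotate phosphoribosyltransferase gene, by 1.13 ± 0.14 (SE) on the log2 scale, and *YNK1*, which encodes nucleoside diphosphate kinase, by 0.88 ± 0.07. Steps between *URA2* and UMP had values below 0 without a call: *URA4* (dihydroorotase) −0.50, *URA1* (dihydroorotate dehydrogenase) −0.36 and *URA5* (the major orotate phosphoribosyltransferase) −0.48. *URA6*, which encodes uridylate kinase, was at −0.35. With library size alone *URA10* was at −0.68 and still called, and *YNK1* at −0.44 was not. The median over all features was then 0.46. The sign of values nearer 0 than that, the list median of −0.29 among them, therefore depends on the scaling. The transcription activator gene *PPR1* was at 0.35 and the uridine permease gene *FUI1* at 0.34, while the uracil salvage genes *FUR1* and *FUR4* were at −0.07 and 0.06. *URA3*, deleted in these strains, had 0 counts in all 6 libraries, and cells without it need uracil from the medium. The log2 ratio per kilobase of *URA2* to *URA4*, the next cytosolic enzyme, was 0.20, 0.23 and 0.29 in *RRP4* and 0.98, 1.23 and 1.26 in *rrp4-G226D* libraries.

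**Figure D2:**
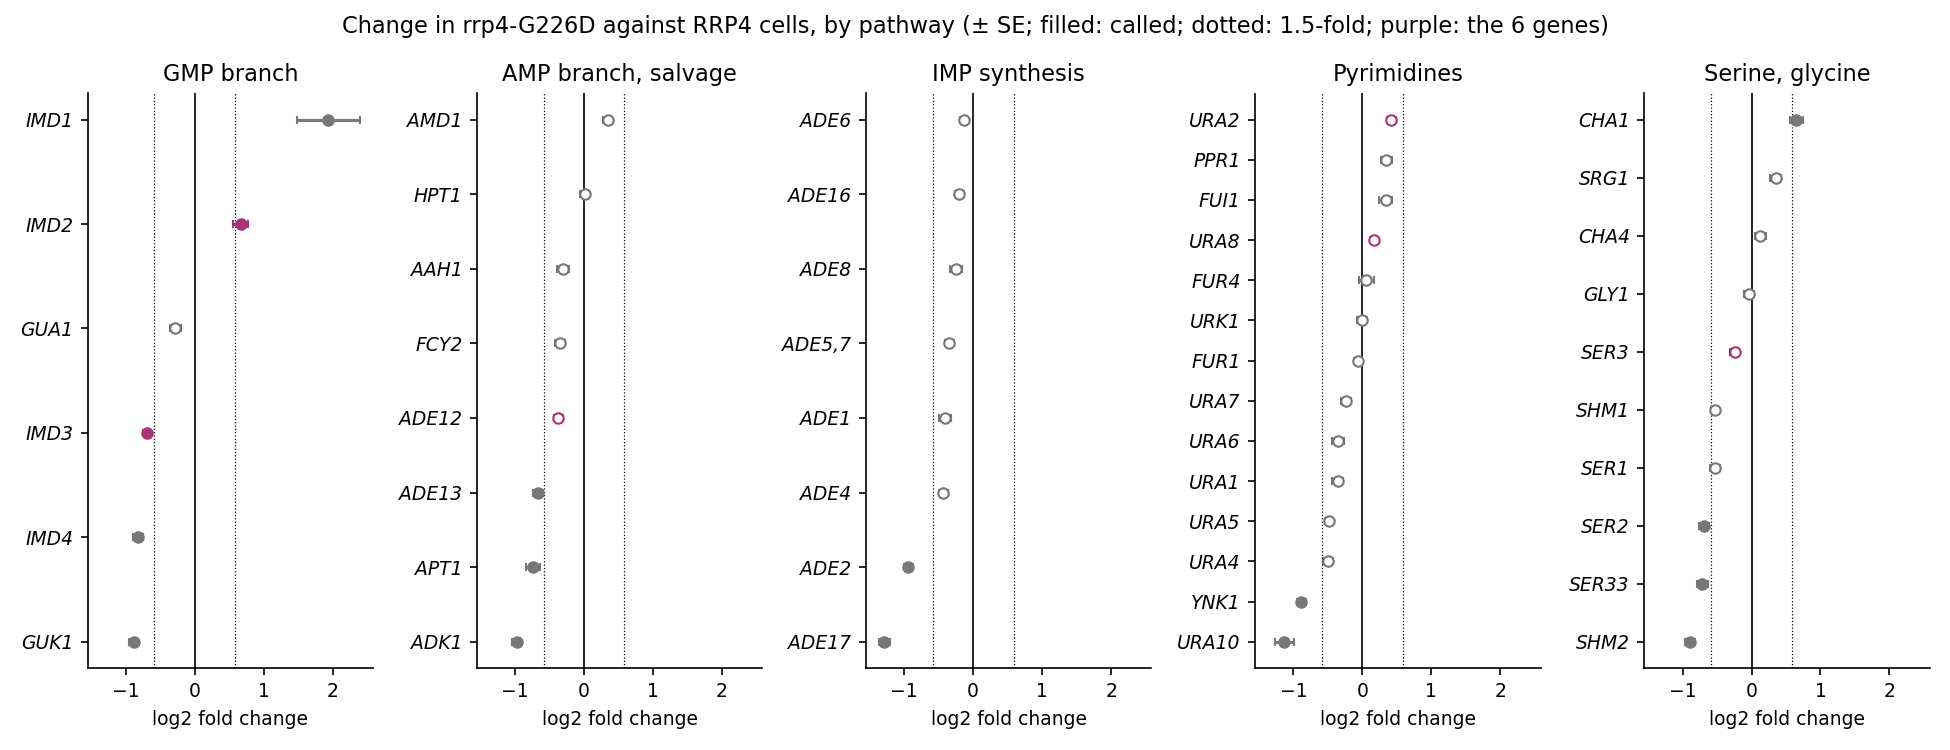
Log2 fold change ± SE (edgeR; rrp4-G226D against RRP4, 3 libraries each) of the genes of 5 pathway lists, with the 6 genes in purple, other genes in grey, filled points for called changes and dotted lines at 1.5-fold. Apart from *IMD1*, *IMD2* and *CHA1*, every called gene in these lists decreased, where 12.7% of all features increased and 11.3% decreased. All 8 IMP synthesis genes were below 0, and *URA2* was the highest pyrimidine gene. Scaled by library size alone, the median of all features rises to 0.46, and *ADE12*, *SER3*, *GUA1* and *URA7* lie above 0. Of the called decreases, only those of *ADE17* and *URA10* keep the call under that scaling. The signs of other values slightly below 0, those of the uncalled IMP synthesis genes among them, also depend on the scaling.

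*ADE12* (YNL220W, chromosome XIV, 234413 to 235714, plus strand) encodes adenylosuccinate synthase, the first step from IMP to AMP. Its upstream bases are shown because its 7 Nrd1 motifs in 300 bases exceed those of 98.7% of yeast promoters; 3 of them lie in this stretch, along with 7 Nab3 motifs.
ADE12, chromosome XIV, 234113 to 234312: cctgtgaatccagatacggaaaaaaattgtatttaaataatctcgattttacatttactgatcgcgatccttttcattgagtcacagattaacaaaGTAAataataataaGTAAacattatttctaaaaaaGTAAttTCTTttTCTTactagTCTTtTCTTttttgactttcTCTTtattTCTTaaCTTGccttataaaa
*ADE12* read at 166, 159 and 163 normalized counts in the *RRP4* libraries and at 138, 112 and 128 in the *rrp4-G226D* libraries. All *rrp4-G226D* libraries were below all *RRP4* libraries and were spread more widely. The means were 163 ± 3.33 and 126 ± 13.3 (SD, n = 3 each), a log2 fold change of −0.37 ± 0.07 (SE; edgeR adjusted p = 0.000182) that was not called. Leaving out each library gave −0.45 to −0.30.

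Of the 7 other genes of the AMP branch and purine salvage, 0 increased, 3 decreased and 4 were not called, with a median of −0.35. For this list and the next, the shares over all features were 12.7% increased and 11.3% decreased. *ADE13*, which encodes adenylosuccinate lyase and acts after *ADE12*, fell by 0.67 ± 0.07 (SE) on the log2 scale; *ADK1* (adenylate kinase) fell by 0.97 and *APT1* (adenine phosphoribosyltransferase) by 0.74. *AMD1*, which encodes AMP deaminase and returns AMP to IMP, was at 0.34 and *HPT1*, which salvages hypoxanthine and guanine, at 0.01, neither called. Upstream of both branches, of the 8 genes for IMP synthesis, 0 increased, 2 decreased and 6 were not called. *ADE17* fell by 1.29 ± 0.08 and *ADE2* by 0.94 ± 0.07, and all 8 estimates were below 0 with TMM. With library size alone *ADE17* was at −0.83 and still called. *ADE2* at −0.49, *ADK1* at −0.53, *APT1* at −0.29 and *ADE13* at −0.22 were not called under that scaling. The median over all features was then 0.46, so the signs of the 6 not called depend on the scaling. The log2 ratio per kilobase of *ADE12* to *ADE13* was 0.33 ± 0.03 in *RRP4* and 0.63 ± 0.10 in *rrp4-G226D* cells (SD, n = 3 each).

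*SER3* (YER081W, chromosome V, 322686 to 324095, plus strand) encodes 3-phosphoglycerate dehydrogenase, which opens serine synthesis from glycolysis. *SRG1* (chromosome V, 322212 to 322762, plus strand) starts 474 bases before the *SER3* start codon and ends inside the *SER3* coding sequence. The shared stretch of 77 bases is shown, with the start codon in capitals, because a read that lies within it on this strand belongs to both features; how such reads were counted is not given in the sources used here.
SRG1 and SER3, chromosome V, 322686 to 322762: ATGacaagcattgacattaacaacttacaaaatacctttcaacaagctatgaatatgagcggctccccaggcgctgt
*SER3* read at 91.8, 81.9 and 87.3 normalized counts in the *RRP4* libraries and at 74.3, 70.0 and 76.2 in the *rrp4-G226D* libraries. Every *rrp4-G226D* library was below every *RRP4* library. The means were 87.0 ± 4.98 and 73.5 ± 3.19 (SD, n = 3 each), a log2 fold change of −0.24 ± 0.07 (SE; edgeR adjusted p = 0.00454), not called.

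*SRG1* read at 69.8, 59.2 and 67.6 in the *RRP4* libraries and at 92.5, 80.9 and 77.5 in the *rrp4-G226D* libraries. Here the *rrp4-G226D* libraries were all above the *RRP4* libraries, opposite to *SER3* with TMM; scaled by library size only, *SER3* was at 0.21 and *SRG1* at 0.80, both above 0. The means were 65.6 ± 5.58 and 83.6 ± 7.86 (SD, n = 3 each), a log2 fold change of 0.35 ± 0.08 (SE; edgeR adjusted p = 0.00105) that was not called. Per kilobase, the log2 ratio of *SRG1* to *SER3* was 0.96, 0.89 and 0.99 in *RRP4* and 1.67, 1.56 and 1.38 in *rrp4-G226D* libraries. The ratio did not overlap between genotypes and its mean differed by 0.59. *CHA4*, which encodes the serine-responsive activator of *SRG1* and *CHA1*, was at 0.13 ± 0.08 (SE) with overlapping groups.

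*CHA1*, which encodes the serine and threonine deaminase, increased by 0.65 ± 0.10 (SE) on the log2 scale, with values of 26.7, 29.1 and 23.8 in *RRP4* and 40.2, 46.2 and 39.3 in *rrp4-G226D* libraries. Without *RRP4* replicate 3 its log2 fold change was 0.58 and without *rrp4-G226D* replicate 2 it was 0.56, both under 1.5-fold. *SER33*, the paralog of *SER3*, fell by 0.71 ± 0.08, *SER2* (phosphoserine phosphatase) by 0.69 and *SHM2* (cytosolic serine hydroxymethyltransferase) by 0.89. *SER1*, which encodes the aminotransferase between them, was at −0.53 and passed 1.5-fold only without *rrp4-G226D* replicate 1, at −0.62. The 9 genes on the serine and glycine list other than *SER3*, with *SRG1* counted among them, had a median of −0.53. Of these, 1 increased, 3 decreased and 5 were not called, where 12.7% of all features increased and 11.3% decreased. The sum of *SER3* and *SER33* was 164 ± 5.23 in *RRP4* and 121 ± 8.34 in *rrp4-G226D* cells, and the share of counts on *SER3* was 53.0% ± 2.51 and 61.0% ± 2.13 (SD, n = 3 each; exact permutation test, p = 0.1 for each, adjusted 0.12). The difference in the sum depends on the scaling, as *SER3* was at 0.21 and *SER33* at −0.26 with library size alone. The share does not depend on it. With library size alone *SER33*, *SER2* at −0.24 and *SHM2* at −0.44 were not called. 

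**Figure D3:**
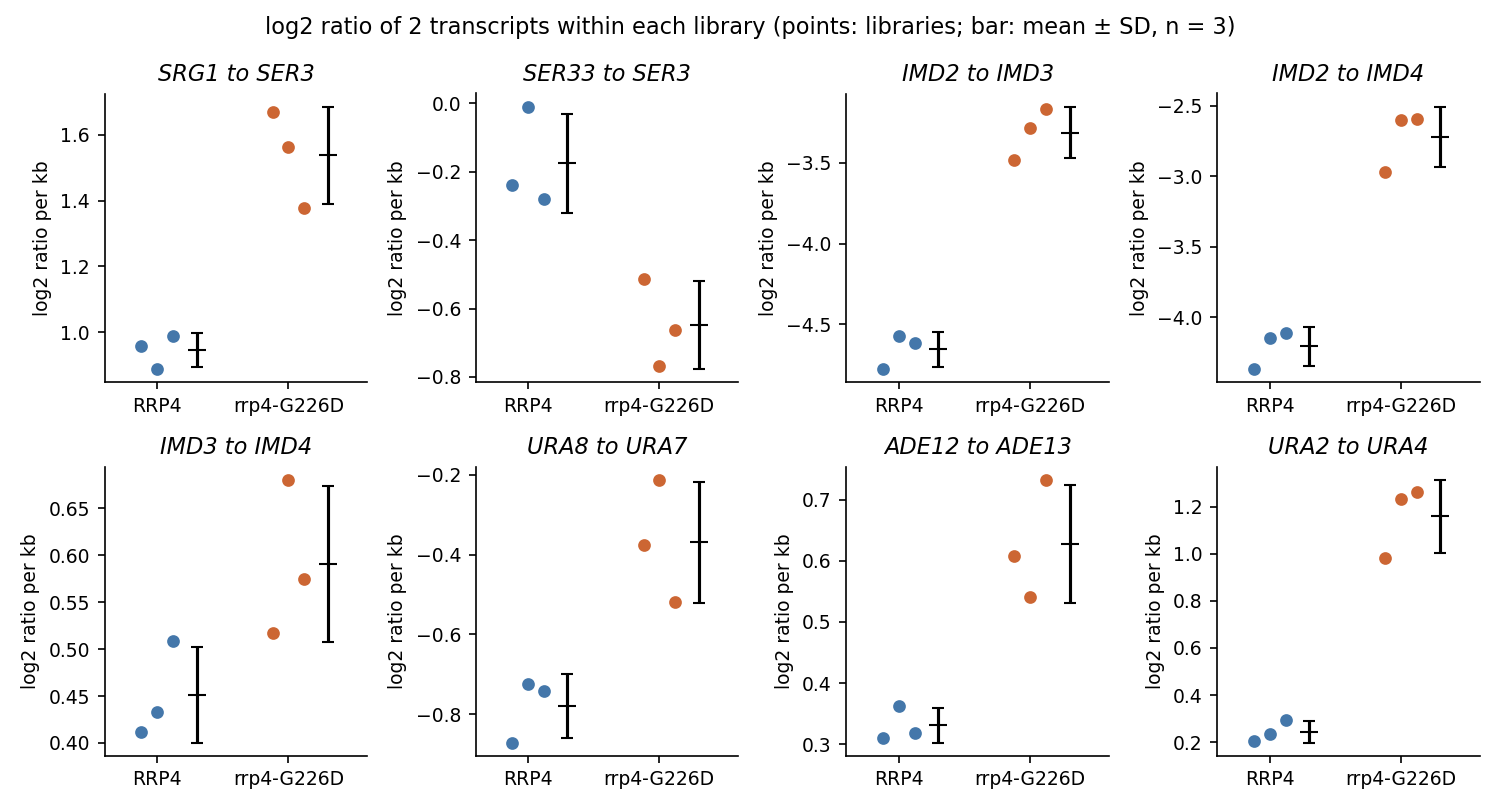
Log2 ratio of normalized counts per kilobase for 8 pairs of transcripts within each library (blue, *RRP4*; orange, *rrp4-G226D*; black bars, mean ± SD of 3 libraries); each panel has its own axis, which does not start at 0. No pair overlapped between genotypes: *IMD2* gained on *IMD3* and *IMD4* by 1.34 and 1.48, *URA2* on *URA4* by 0.92 and *SRG1* on *SER3* by 0.59, and *IMD3* to *IMD4* moved the least, by 0.14.

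For comparison, 64.1% of single features did not overlap between genotypes, and the share among other pairs of transcripts was not computed. All 8 ratios had an exact two-sided permutation p of 0.1, adjusted 0.1, the smallest possible with 3 libraries per genotype. Besides the pairs above, the mean ratio of *URA8* to *URA7* was higher by 0.41 in *rrp4-G226D* cells and that of *ADE12* to *ADE13* by 0.30, while that of *SER33* to *SER3* was lower, at −0.65 against −0.18.

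Per kilobase of coding sequence, the order of the 6 genes in *RRP4* cells was *IMD3* at 272 ± 9.99, *ADE12* at 125 ± 2.56, *URA2* at 121 ± 1.67, *URA8* at 98.5 ± 5.13, *SER3* at 61.7 ± 3.53 and *IMD2* at 10.8 ± 0.460 normalized counts per kilobase (SD, n = 3 each). *ADE12* and *URA2* lay within the sum of their SDs of each other. In *rrp4-G226D* cells the order was *IMD3* at 168 ± 9.43, *URA2* at 162 ± 11.1, *URA8* at 111 ± 2.57, *ADE12* at 96.7 ± 10.2, *SER3* at 52.1 ± 2.27 and *IMD2* at 17.0 ± 2.16. *IMD3* and *URA2* overlapped there. *ADE12* was above *URA8* in *RRP4* cells and below it in *rrp4-G226D* cells, whereas *IMD2* stayed the lowest by a wide margin.

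With TMM, other genes limited by early termination did not share 1 direction. The signs of those below 0 depend on the scaling, as the median over all features was 0.46 with library size alone. Of *NRD1*, *HRP1*, *DEF1* and *FKS2*, 1 increased, 0 decreased and 3 were not called, where 12.7% of all features increased and 11.3% decreased. *NRD1*, whose protein terminates its own transcript early, rose from 308, 266 and 275 normalized counts to 520, 504 and 569, a log2 fold change of 0.91 ± 0.07 (SE; edgeR adjusted p = 4.87e-09). *HRP1* was at −0.04, *DEF1* at −0.30 and *FKS2* (named GSC2 in the files) at −0.20. The 3 genes of the termination complex all increased, with *NAB3* at 0.68 ± 0.07 and the helicase gene *SEN1* at 0.59 ± 0.06, the latter just past 1.5-fold.

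Both strands of the 300 bases before the start codon of 6020 genes were searched for the same motifs, with overlapping matches counted. On the strand of the gene, 89.3% of these promoters held GTAA or GTAG and 93.3% held TCTT or CTTG, with medians of 2 and 3 per promoter, so most promoters carry both kinds. *IMD2*, *IMD3*, *URA2*, *URA8*, *ADE12* and *SER3* held 2, 3, 0, 1, 7 and 2 Nrd1 motifs and 4, 7, 3, 9, 7 and 5 Nab3 motifs. On the opposite strand, where 88.4% and 95.7% of promoters hold them, the counts were 3, 2, 3, 1, 5 and 2 for Nrd1 and 3, 4, 5, 1, 1 and 4 for Nab3. *URA8* was above 96.3% of promoters in Nab3 motifs on its own strand, and *SER3* was above 70.3%, while *IMD2* was near the median in both kinds. With TMM, the Nrd1 counts were 0 to 2 among the genes higher in *rrp4-G226D* cells and 2 to 7 among those lower, a description over 6 genes. The paralogs *IMD4*, *URA7* and *SER33* held 0, 1 and 3, with log2 fold changes of −0.83, −0.24 and −0.71. With library size alone *ADE12* and *SER3* were above 0. The letters TATAAA occurred in *SER3* 103 and 29 bases before the start codon and once in *ADE12* (31.9% of promoters hold them on that strand), and on the opposite strand in *URA2* (27.1%). TGACTC, the core of the site of the amino acid control activator Gcn4, occurred in *URA2* on its own strand and in *ADE12* on the other (4.02% of promoters for each strand), and the site of Ppr1 in none of the 6 (1.28% for each strand).

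Of the 12 annotated genes next to the 6, 11 were tested; 0 increased, 1 decreased and 10 were not called, where 12.7% of all features increased and 11.3% decreased. The 1 was *SOD1*, which encodes copper-zinc superoxide dismutase, lies 59 bases beyond *URA8* on the opposite strand and fell by 1.26 ± 0.07 (SE) on the log2 scale, from 943 to 394. Whether counting used the strand of the reads is not given in the sources used here, so reads antisense to a gene cannot be told apart from its own. Beside *IMD3*, *CNA1* was at 0.33 and *ATG23* at 0.20, both opposite in sign to it, and beside *IMD2*, *PHO12* was at 0.24. Beside *URA2*, *TRK1* was at 0.30 and *AIM23* at −0.18, and before *URA8*, *VPS25* was at −0.37. *ADE12* lies between *POP1* at 0.48 and *ALG9* at −0.50 ± 0.06 (edgeR adjusted p = 2.37e-06); the latter encodes a mannosyltransferase and is the transcript to which the study's RT-qPCR was normalized. Scaled by library size only, *ALG9* was at −0.052 (edgeR adjusted p = 0.500), so its difference depends on the scaling. Around *SER3*, *AIM9* was at −0.48 and *UTP7* at 0.06.

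Profiles were compared by Pearson correlation of log2 normalized counts over the 6 libraries, among 6336 other features with a mean count of at least 50. The closest to *IMD2* were *CBF2* (r = 0.998), *KIC1* and SUT818. Those closest to *IMD3* were *CDS1* (r = 0.9997), *PUP3* and *CTS1*, and those closest to *URA2* were *UTP14* (r = 0.999), *IFH1* and *RAD9*. *URA8* was nearest to *OPY2* (r = 0.992), *VPS20* and SUT522, *ADE12* to *DPI8* (r = 0.997), YJR120W and *snR82*, and *SER3* to *WHI2* (r = 0.9997), *PET494* and *TRM112*. The libraries fall into 2 genotypes, so these values mostly restate the difference between them, and 70 to 1107 features exceeded 0.95 for each gene. They are a description only.

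The change of each gene depended on how libraries were scaled. With library size alone, the median over all features was 0.46 on the log2 scale. Such a scaling adds nearly the same amount to every gene, so it moves values against 0 and 1.5-fold but not against each other. Under that scaling *URA2* at 0.87, *URA8* at 0.62 and *SRG1* at 0.80 passed 1.5-fold, *IMD3* at −0.24 did not, and *ADE12* at 0.078 and *SER3* at 0.21 were above 0.

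**Figure D4:**
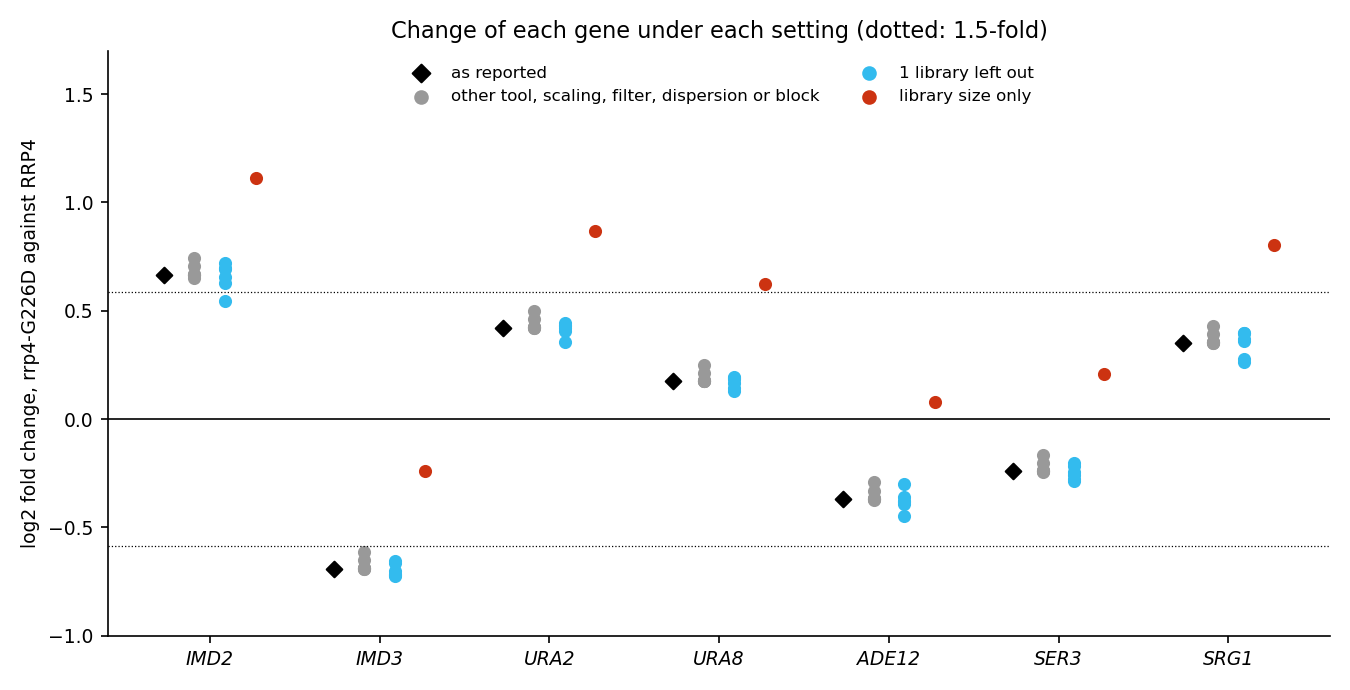
Log2 fold change of the 6 genes and *SRG1* (rrp4-G226D against RRP4) as reported (black diamonds), with another tool, scaling, filter, dispersion or replicate block (grey), with 1 library left out (blue) and with library size alone (red); dotted lines mark 1.5-fold. Black, grey and blue points keep 1 sign for each gene and 1 side of 1.5-fold, except *IMD2* without *rrp4-G226D* replicate 3 at 0.54, and red points lie higher throughout, with *ADE12* and *SER3* above 0.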

How the data were processed

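Per the labels and the study's methods, total RNA was depleted of rRNA, and stranded libraries were sequenced as paired ends. The authors mapped reads with STAR to R64 with added CUTs and SUTs and deposited counts per feature from featureCounts 1.6.4, without normalization. Their table of a DESeq2 comparison, whose mean normalized counts are a signal that the authors pooled over all libraries, with fold changes and p-values, was used only for gene names. Positions and sequences came from RefSeq's R64 assembly; 6079 features matched it.

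The main test was edgeR 4.0.16 in R 4.3.3 (quasi-likelihood, TMM, filterByExpr, genotype as the only term), with Benjamini-Hochberg adjustment over 7631 features. The SE is the log2 fold change divided by the square root of F, and intervals are 1.96 SE. Ratios and shares were tested exactly with scipy 1.17.1. Functions were tested on simulated data. Alternatives were DESeq2 1.42.0, RLE, library size only, TMM over open reading frames, other filters, robust dispersion, a replicate block and leaving out each library; leaving out libraries for the ratios was added after seeing the data.

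The genes and lists were chosen with earlier results of these data known. Genes named are the 6, every list gene that passed the call, their paralogs and pathway partners, the nearest neighbours and the 3 closest profiles of each; other list genes were named after their values were seen.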

Additional observations from a re-analysis of the deposited data

How the results depend on the processing

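Of 37 log2 fold changes, the 37 estimates under each of DESeq2, RLE, TMM over open reading frames, no filter, robust dispersion and the replicate block, and 36 with a mean count of at least 50 (*IMD1* was not tested there), kept their direction and their side of the call. With library size only, 12 of 37 did so, 11 lost and 8 gained a call and 6 reversed. *IMD3* was −0.24 there, *URA2* 0.87, *URA8* 0.62 and *SRG1* 0.80, and the reversed values were *ADE12* 0.078, *SER3* 0.21, *GUA1* 0.17, *URA7* 0.22, *AIM23* 0.28 and *VPS25* 0.079. Of the 6 genes 3 were then increased and 0 decreased, and of the other listed genes 7 and 2, against 3 and 12. Over all features that scaling called 2880 increased and 152 decreased (95% increased), TMM over open reading frames 1171 and 677 (63.4%), and the test as reported 968 and 864 (52.8%). Which scaling is right was not tested.

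Leaving out each library gave 0.54 to 0.72 for *IMD2* and 0 to 1 increased genes among the 6. Replicate numbers did not pair the libraries: deviations of same-numbered libraries correlated at 0.001, 0.114 and −0.174 over 6337 features, and not every library correlated best with its own number. With the replicate block, 960 features were increased and 870 decreased; *IMD2* was 0.65, *IMD3* −0.69, *URA2* 0.42 and *URA8* 0.18. At the depth of *IMD1*, with 3 to 44 counts, precision is limited.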

Other observations

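The labels give the strain as *MATα* and name no *lys2* allele, whereas the study's strain table lists *MATa* and a *lys2* deletion. Genes that mark the strain gave the following raw counts. *LYS2* had 0 counts in 5 libraries and 1 in the other, and *HIS3* had 478 to 885. Of the genes of the α mating type, the a-factor receptor gene *STE3* had 992 to 1658 counts and the α-factor gene *MFALPHA1* 8519 to 17821. The other α-factor gene, *MFALPHA2*, was low, with 36 to 74. Genes of the a mating type were low, with 66 to 139 on *STE2*, 14 to 40 on *MFA1* and 6 to 20 on *MFA2*. The plasmid marker *LEU2* read at 2134 normalized counts in *RRP4* and 1408 in *rrp4-G226D* cells and fell by 0.60 ± 0.07 on the log2 scale (SE; edgeR adjusted p = 4.95e-07), while *RRP4* on the same plasmid rose by 0.79 ± 0.06. The fall of *LEU2* was just past 1.5-fold. Its size depends on the scaling, as the median over all features was 0.46 with library size alone.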
